A study of Mus musculus with 5 samples.

Results

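The fibrillar collagens and lysyl oxidase form the scaffold of the matrix that stromal cells lay down. Members were taken by gene symbol: Lox and the genes of the fibrillar collagen chains Col1a1, Col1a2, Col2a1, Col3a1, Col5a1, Col5a2, Col5a3, Col11a1, Col11a2, Col24a1 and Col27a1, 12 genes in all, each with every probe set that carried that single symbol. Of these, 7 genes with 15 probe sets were in the deposited table of 3373 probe sets, which covers 2190 named genes. They were Col1a1, Col1a2, Col3a1, Col5a1, Col5a2, Col11a1 and Lox. The other 5 genes were not analysed here.

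The 5 Affymetrix arrays held RNA of mesenchymal stem cells (MSC), stromal cells of mouse bone marrow, grown in primary culture. In 2 of them the MSC had shared a transwell dish for 48 h with T cells, 10 for each MSC, stimulated by antibodies to CD3 and CD28, so that a porous membrane kept the cells apart while soluble products passed. The other 3 arrays held MSC grown alone, with no T cells. Each array is labelled a biological repetition; the labels give no strain or age, and do not say how many animals stand behind a culture.

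A fibrillar collagen is a rope of 3 chains wound around each other. Type I collagen joins chains from Col1a1 and Col1a2 and is the bulk of bone and of most connective tissue, type III collagen is built of Col3a1 chains alone and mixes with type I in extensible tissue, and types V (Col5a1, Col5a2) and XI (Col11a1) sit inside the fibril, where they help to start it and to limit its width. Lox encodes lysyl oxidase, a secreted copper enzyme that oxidises lysines of collagen and elastin so that neighbouring molecules become covalently cross-linked.

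Promoter windows of 300 bases (250 before the gene start and 50 after it, RefSeq, GRCm38.p6) were at hand for 4 of the 7 genes, all collagens on the plus strand, and are shown because these genes fell together in the results that follow. Capitals mark matches, on either strand, to the CCAAT box (on the other strand ATTGG), the TATA box letters TATAAA, the GC box letters GGGCGG, the SMAD-type letters CAGACA and the STAT-type letters TTCNNNGAA; no match overlapped another. The windows are chr6:4505368-4505667 for Col1a2, chr1:45311288-45311587 for Col3a1, chr2:27886175-27886474 for Col5a1 and chr3:114030290-114030589 for Col11a1.
Col1a2: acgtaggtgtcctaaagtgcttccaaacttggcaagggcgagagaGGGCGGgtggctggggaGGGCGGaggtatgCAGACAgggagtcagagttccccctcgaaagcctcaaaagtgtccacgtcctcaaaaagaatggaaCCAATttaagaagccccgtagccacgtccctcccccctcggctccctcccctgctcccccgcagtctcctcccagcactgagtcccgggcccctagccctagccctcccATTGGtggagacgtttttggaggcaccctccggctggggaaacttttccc
Col3a1: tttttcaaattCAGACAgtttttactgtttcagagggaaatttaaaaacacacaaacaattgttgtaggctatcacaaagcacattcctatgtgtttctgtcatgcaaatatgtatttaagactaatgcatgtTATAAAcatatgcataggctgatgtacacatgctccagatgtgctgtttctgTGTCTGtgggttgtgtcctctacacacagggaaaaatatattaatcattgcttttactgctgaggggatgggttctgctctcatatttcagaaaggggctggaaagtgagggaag
Col5a1: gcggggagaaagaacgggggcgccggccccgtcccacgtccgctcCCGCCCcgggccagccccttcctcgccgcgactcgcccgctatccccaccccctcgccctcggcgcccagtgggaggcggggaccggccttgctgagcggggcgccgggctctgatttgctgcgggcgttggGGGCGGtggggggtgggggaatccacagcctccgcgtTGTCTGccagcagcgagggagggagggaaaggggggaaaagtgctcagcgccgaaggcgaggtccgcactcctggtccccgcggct
Col11a1: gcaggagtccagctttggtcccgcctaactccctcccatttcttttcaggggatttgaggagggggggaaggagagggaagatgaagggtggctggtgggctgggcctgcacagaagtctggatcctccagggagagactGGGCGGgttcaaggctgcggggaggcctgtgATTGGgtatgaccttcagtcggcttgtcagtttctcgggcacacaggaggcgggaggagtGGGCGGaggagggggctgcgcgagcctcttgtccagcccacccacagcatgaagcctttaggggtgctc

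The 4 windows did not share one set of letters. GGGCGG stood at 2 places in each of Col1a2, Col5a1 and Col11a1 and was not in the Col3a1 window; 35.7% of 32851 promoter windows of the same length hold it. CCAAT was in Col1a2 (2 places) and Col11a1 (1 place), against 37.4% of all windows. CAGACA was in Col1a2, Col3a1 and Col5a1 (21% of all windows), TATAAA only in Col3a1 among the 4 (13.6%), and TTCNNNGAA in none of the 4 (8.3%). A match is a run of letters, not a bound site.

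All 15 probe sets were lower in the co-cultured cells. The falls ran from 3.95-fold for Lox to 81.6-fold for a probe set of Col3a1, and each had an adjusted p under the threshold of 0.05 in limma (0.000139 to 0.00659). Among all probe sets 51.3% were lower and called. The median difference of the 15 was -4.03 on the log2 scale, where 1 unit is a 2-fold change, against -0.58 over all probe sets and -1.23 over the 1731 lower ones. Genes with several probe sets count more than once in that median. With each gene read by the probe set with its highest mean, the median of the 7 genes was -3.01. It was -0.61 over all genes and -1.22 over the 1133 lower ones. A fall of at least 8-fold was seen in 12 of the 15, and in 1.99% of the table. That count also holds several probe sets of 1 gene. By the probe set with the highest mean, Col5a1 (6.23-fold), Col1a2 (4.07-fold) and Lox (3.95-fold) fell by less than 8-fold. These comparisons carry a limit: in every one of the 3373 probe sets the co-culture arrays lay entirely to one side of the arrays of MSC alone, and 100% of probe sets passed the test, so the table is treated as selected on this contrast and a pass says little about a gene. When p was adjusted for 15 times the number of probe sets in the table, 12 of the 15 passed, against 6.23% of the table called lower. Read by the probe set with the highest mean, Col1a2 and Lox did not pass (limma adjusted p 0.0507 and 0.0988). Arrays measure RNA of the whole culture, so fewer collagen-making cells and less collagen RNA per cell cannot be told apart.

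**Figure D1:**
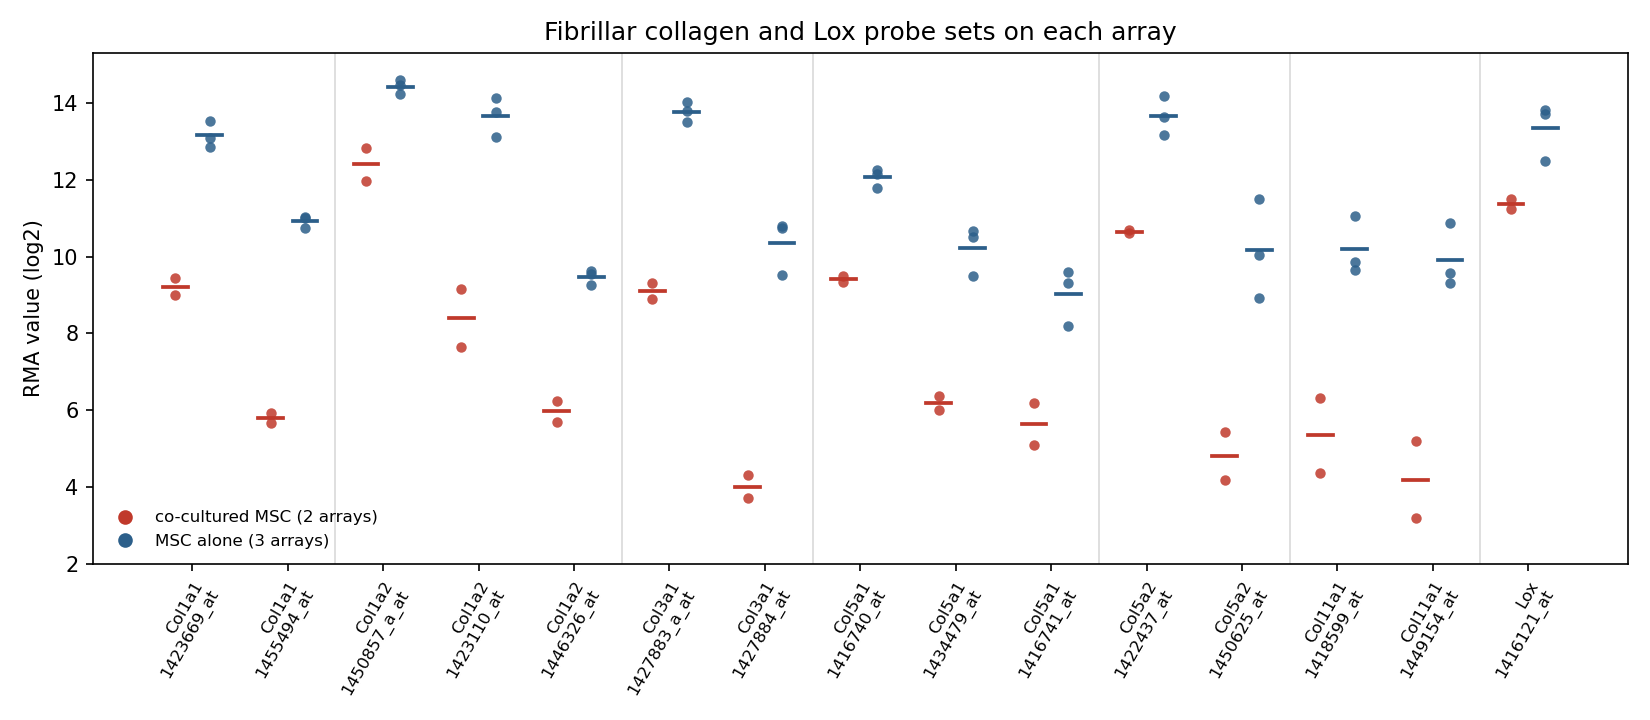
Level of each of the 15 probe sets on every array, as RMA values on the log2 scale; points are arrays (co-cultured MSC, 2, on the left of each pair; MSC alone, 3, on the right) and bars are group means. The groups are apart in every probe set, with gaps from 0.995 (Lox) to 5.22 (Col3a1, 1427884_at).

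Type I collagen was read by 5 probe sets. Col1a1 (Entrez Gene 12842), the gene of its major chain, had log2 values of 9.00 and 9.43 in the co-culture arrays and 13.53, 12.84 and 13.09 in MSC alone in probe set 1423669_at. The lowest array of MSC alone stood 3.415 above the higher co-culture array. The level averaged 9.21 ± 0.30 (SD, n = 2) in co-culture and 13.16 ± 0.35 (SD, n = 3) in MSC alone, a difference of -3.94 ± 0.27 (SE), or 15.4-fold lower (limma adjusted p 0.000573). In its second probe set, 1455494_at, Col1a1 had 5.94 and 5.65 in co-culture and 11.03, 10.74 and 11.01 in MSC alone. Both groups were tight there, and the fall was larger, 35.0-fold (-5.13 ± 0.20 SE; limma adjusted p 0.000139, the lowest of the 15).

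Col1a2 (Entrez Gene 12843), the gene of the other type I chain, had 3 probe sets that gave unlike sizes. In 1450857_a_at it had 12.84 and 11.96 in the co-culture arrays and 14.46, 14.23 and 14.59 in MSC alone. That last value is the highest of the table, so this probe set worked at the top of the measured range in MSC alone. Its fall was 4.07-fold (-2.02 ± 0.30 SE; limma adjusted p 0.00338, or 0.0507 with 15 times as many tests). In 1423110_at the values were 9.16 and 7.65 in co-culture and 13.76, 13.11 and 14.12 in MSC alone. This probe set fell 38.3-fold (-5.26 ± 0.50 SE; limma adjusted p 0.00125), by 64.7-fold without co-culture replicate 1 and 22.7-fold without co-culture replicate 2. The dimmest, 1446326_at, had 6.25 and 5.68 in co-culture and 9.53, 9.25 and 9.63 in MSC alone, an 11.4-fold fall. The groups were apart in all 3 of these probe sets, but the largest and the smallest fall of Col1a2 differed more than those of any other member with several probe sets.

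Col3a1 (Entrez Gene 12825), the only chain of type III collagen, had 9.31 and 8.89 in co-culture and 14.03, 13.49 and 13.78 in MSC alone in 1427883_a_at. It was 25.5-fold lower (-4.67 ± 0.24 SE; limma adjusted p 0.000228), and the 9th largest fall among the 2190 genes when each gene is read by the probe set with its highest mean. In 1427884_at it had 4.30 and 3.72 in co-culture and 10.75, 9.52 and 10.80 in MSC alone. Co-culture there came near the lowest value of the table, 2.62. The fall of 81.6-fold (-6.35 ± 0.44 SE; limma adjusted p 0.000581) was the second largest of all 3373 probe sets. RMA gives no detection call, so whether any Col3a1 RNA was measured by that probe set in co-culture is unknown, and the size is uncertain.

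Type V collagen was read by 5 probe sets of its 2 genes in the table. Col5a1 (Entrez Gene 12831) had 9.50 and 9.35 in co-culture and 12.27, 11.78 and 12.15 in MSC alone in 1416740_at, a 6.23-fold fall (-2.64 ± 0.21 SE; limma adjusted p 0.000842). Its probe sets 1434479_at and 1416741_at fell 16.4-fold and 10.6-fold (-4.03 ± 0.38 and -3.41 ± 0.51 SE). In 1416741_at the arrays scattered more, with 6.17 and 5.08 in co-culture and 9.32, 8.19 and 9.59 in MSC alone, and with 15 times as many tests its limma adjusted p was 0.0524. Col5a2 (Entrez Gene 12832) had 10.61 and 10.68 in co-culture and 13.62, 13.18 and 14.18 in MSC alone in 1422437_at, an 8.07-fold fall (-3.01 ± 0.31 SE; limma adjusted p 0.00152). The co-culture arrays agreed closely and those of MSC alone spanned 1.01. In 1450625_at Col5a2 had 5.43 and 4.19 in co-culture and 10.04, 8.93 and 11.50 in MSC alone, which was 40.8-fold lower (-5.35 ± 0.76 SE; limma adjusted p 0.00329). That estimate moved with single arrays: it was -4.68 without MSC alone replicate 3, -5.97 without MSC alone replicate 2, -5.97 without co-culture replicate 1 and -4.73 without co-culture replicate 2. Co-culture replicate 2, at 4.19, was also low in a table whose lowest value was 2.62, so the 40.8-fold size is uncertain.

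Col11a1 (Entrez Gene 12814), a type XI chain best known from cartilage, fell strongly and with the widest scatter in co-culture. In 1418599_at it had 6.31 and 4.37 in the co-culture arrays and 9.86, 9.65 and 11.05 in MSC alone. In 1449154_at it had 5.19 and 3.19 in co-culture and 9.57, 9.31 and 10.89 in MSC alone. Replicate 2 was the lower co-culture array in both, by 1.95 and 2.00, and replicate 3 the highest of MSC alone. The falls were 28.8-fold (-4.85 ± 0.66 SE; limma adjusted p 0.00306) and 53.1-fold (-5.73 ± 0.70 SE; limma adjusted p 0.00228). Without co-culture replicate 1 they were 56.6-fold and 106-fold, and without co-culture replicate 2 they were 14.7-fold and 26.6-fold. In 1449154_at co-culture replicate 2, at 3.19, came near the lowest value of the table, 2.62. Without a detection call, whether any Col11a1 RNA was measured by that probe set on that array is unknown. The sizes of 53.1-fold and 106-fold, which draw on that array, are therefore uncertain. By its brighter probe set Col11a1 was the 8th largest fall of the 2190 genes, next to Col3a1. Co-culture replicate 2 was low in that probe set too, at 4.37, so the 28.8-fold size and this rank are also uncertain.

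Lox (Entrez Gene 16948) had the smallest fall of the 15, in its only probe set, 1416121_at. It had 11.23 and 11.49 in the co-culture arrays and 13.82, 13.72 and 12.49 in MSC alone. Replicate 3 of MSC alone lay well under the other 2, and 0.995 above the higher co-culture array, the narrowest gap between groups among the 15. The level averaged 11.36 ± 0.19 (SD, n = 2) in co-culture and 13.34 ± 0.74 (SD, n = 3) in MSC alone, a difference of -1.98 ± 0.42 (SE), or 3.95-fold lower (limma adjusted p 0.00659, or 0.0988 with 15 times as many tests). Without MSC alone replicate 3 the fall was 5.31-fold, and without MSC alone replicate 1 it was 3.35-fold.

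**Figure D2:**
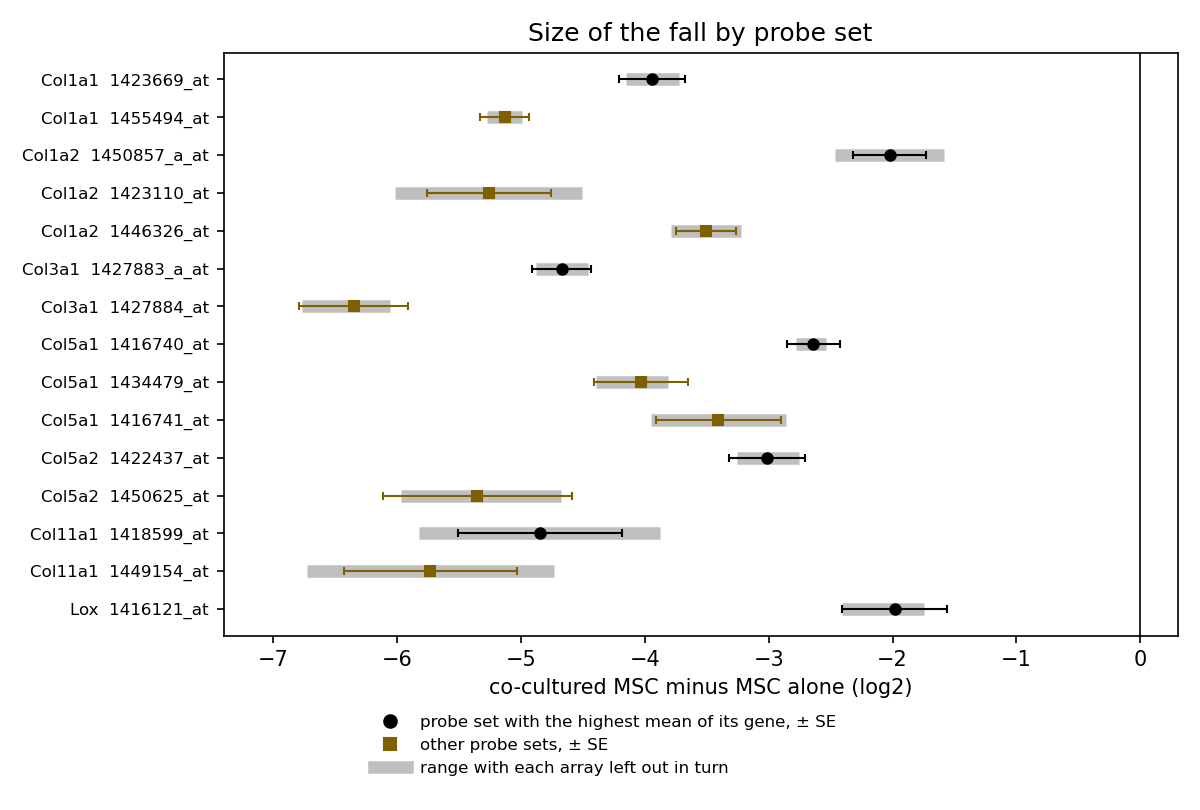
Difference between co-cultured MSC and MSC alone on the log2 scale for each probe set (points, with limma's SE as bars); black circles are the probe set with the highest mean of its gene, brown squares the others, and grey bands the range when each array is left out in turn. All bands lie below 0, and the estimate of 1 gene can span from -2.02 to -5.26 between its probe sets (Col1a2).

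Each of the 6 collagen genes had more than 1 probe set, and in 6 of 6 the one with the highest mean over the arrays gave the smallest fall. The mean itself includes the co-culture arrays, so a larger fall lowers it. Of the 291 genes of the table with several probe sets that were all lower, 39.2% showed the same order. The order of the genes by size of fall depended on the probe set and on single arrays. By the probe set with the highest mean it was Col11a1 (28.8-fold), Col3a1 (25.5-fold), Col1a1 (15.4-fold), Col5a2 (8.07-fold), Col5a1 (6.23-fold), Col1a2 (4.07-fold) and Lox (3.95-fold). Without co-culture replicate 2 the first 3 were Col3a1, Col1a1 and Col11a1, and without MSC alone replicate 3 Col3a1 again stood ahead of Col11a1. Col1a2 and Lox changed places when either of these arrays was left out. The differences between genes were tested as the difference of 2 genes within each array, for 21 pairs. The largest, between Col11a1 and Lox, was -2.87 on the log2 scale, with within-array differences of -7.13 to -4.91 in co-culture and -4.06 to -1.44 in MSC alone (exact permutation test, two-sided, p = 0.2, adjusted p = 0.247). The size of that difference was 3.97 without co-culture replicate 1 and 1.76 without co-culture replicate 2, where Col3a1 and Col1a2 lay farther apart (2.88); they also did without MSC alone replicate 3 (2.72, against 2.01 for Col11a1 and Lox). With 10 ways to split 5 arrays 0.2 is the smallest p this test can give, so no pair could pass, and 0 of the 21 had an unadjusted p under 0.05. Col11a1 and Col3a1 differed by -0.18 (p = 0.8 in the same exact test) and Col1a2 and Lox by -0.04 (p = 0.8), with overlapping groups in both pairs. In the brightest probe sets the fall of Col1a1 exceeded that of Col1a2 by 1.92 on the log2 scale (exact p = 0.2), by 1.27 without co-culture replicate 1 and by 2.57 without co-culture replicate 2, whereas probe set 1423110_at of Col1a2 (-5.26) had a larger fall than either probe set of Col1a1.

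The collagen probe sets shared their lowest array, and that of Lox was another. Among the arrays of MSC alone, replicate 2 was the lowest in 14 of 14 collagen probe sets and replicate 3 the highest in 10 of 14, whereas for Lox replicate 3 was the lowest. Of all 1731 lower probe sets 53% were lowest in replicate 2 and 48.3% highest in replicate 3. The mean over the 14 collagen probe sets was 7.60 and 6.84 in co-culture replicates 1 and 2, and 11.59, 10.98 and 11.93 in replicates 1, 2 and 3 of MSC alone. Co-culture replicate 2 was the lower array in 12 of 14 collagen probe sets and in 77.5% of all lower probe sets, the exceptions being the brightest probe sets of Col1a1 and Col5a2; Lox was also lower in replicate 1. Probe sets of 1 gene share its RNA and are not independent.

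**Figure D3:**
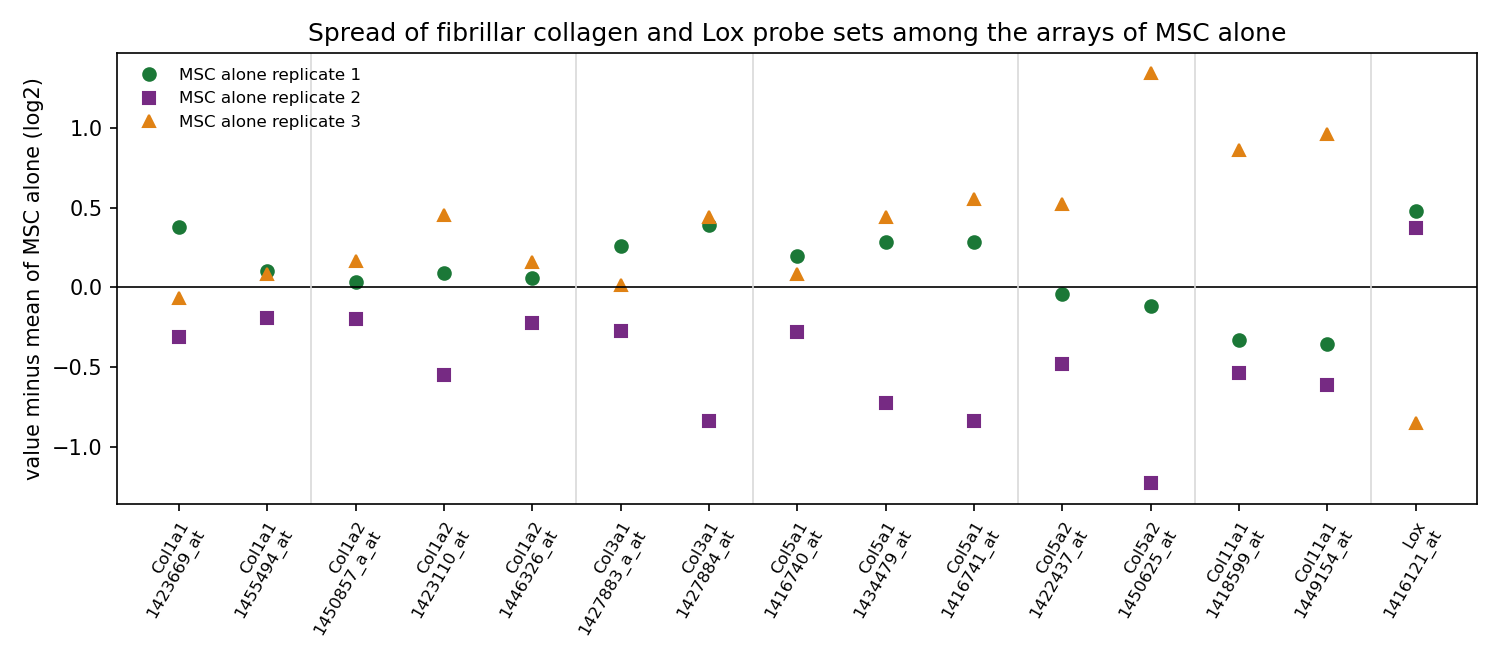
Value of each array of MSC alone minus their mean, on the log2 scale, for the 15 probe sets. Replicate 2 (squares) lies lowest in all 14 collagen probe sets, and replicate 3 (triangles) lies lowest for Lox, at -0.85.

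The genes most like each member were found by the root mean square difference of log2 values centred on each probe set's mean, over the 5 arrays. This measure sees the size of the fall and the scatter of the arrays at once. Nearest to Col1a1 were Col12a1, a fibril-associated collagen (0.265), Edil3 (0.325) and Col6a2, a chain of microfibrillar type VI collagen (0.338). Col6a2 was also near Col3a1 (0.372), after Rspo2, a secreted enhancer of Wnt signalling (0.343), and before Irs1, an insulin receptor adaptor (0.465). Rspo2 (0.448) was nearest to Col11a1 too, ahead of Ogn, encoding the proteoglycan osteoglycin (0.560), and the co-receptor gene Nrp1 (0.727). Nearest to Col5a2 was P4ha2, encoding a collagen prolyl hydroxylase subunit (0.185), followed by Sec16b (0.213) and Zfp354c (0.220). Nearest to Col5a1 were Pdlim2 (0.118), Ccdc80 (0.128) and Tial1 (0.163), and to Col1a2 Arpp19 (0.074), Bcl2 (0.078) and Usp9x (0.081). Nearest to Lox were Rflnb (0.083), the calcium channel gene Cacna1c (0.161) and Gpr35 (0.227), which like Lox were all lowest of the MSC alone arrays in replicate 3. They were chosen on these same values, so that likeness follows from the choice. Among the members, each by the probe set with its highest mean, the closest pair was Col5a1 and Col5a2, chains of type V collagen (0.311). The most distant were Col11a1 and Lox (1.83). On the same measure Col1a1 lay nearer to Col3a1 (0.451) than Irs1 did, and Col3a1 nearer to Col11a1 (0.684) than Nrp1 did. By the dimmest probe set of each gene, Col5a2 fell by 1.94 more than Col5a1 on the log2 scale.

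Genes that fold, export, trim, cross-link, bind or take up fibrillar collagen were taken from a list of 63, of which 17 were in the table. All 17 were lower in co-culture and passed the test, against 51.7% of the named genes called lower; 0 were higher. The median difference was -1.52 on the log2 scale, against -0.61 over all 2190 genes and -1.22 over the 1133 lower ones. With 15 times as many tests 5 of the 17 passed, against 6.23% of all probe sets called lower. The other 46 were not analysed here; they include all 8 collagen receptors and uptake genes and all 5 collagen-cleaving proteinases of the list.

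Of 18 listed genes of hydroxylation, glycosylation and folding in the endoplasmic reticulum 8 were in the table. Prolyl 4-hydroxylase makes the hydroxyprolines that keep the triple helix stable, and 3 genes of its catalytic subunit fell. P4ha2 had 9.02 and 9.165 in co-culture and 11.825, 11.755 and 12.26 in MSC alone, 7.23-fold lower (limma adjusted p 0.00076). P4ha3 fell 5.69-fold and P4ha1 2.44-fold. P4hb, the shared beta subunit that also serves as protein disulfide isomerase, had the smallest fall of the list, 1.63-fold (limma adjusted p 0.00958). The collagen chaperone gene Serpinh1 (HSP47) had 11.46 and 11.25 in co-culture and 12.49, 12.40 and 13.15 in MSC alone, 2.51-fold lower (limma adjusted p 0.00612). Fkbp14, a prolyl isomerase of the endoplasmic reticulum, fell 5.94-fold, with replicate 3 of MSC alone at 9.29 against 7.86 and 7.845 in the other 2. P3h2, a prolyl 3-hydroxylase, fell 2.96-fold and Crtap, which partners with a prolyl 3-hydroxylase, 2.43-fold.

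The remaining 9 genes hold other roles. Creb3l1, a transcription factor released from the endoplasmic reticulum that drives collagen genes in bone, fell 5.85-fold, and Sec24d, a coat protein of the vesicles that carry procollagen, 2.10-fold. Pcolce, an enhancer of C-propeptide removal, fell 2.76-fold. The lysyl oxidase relatives Loxl1 and Loxl4 fell 2.86-fold and 2.26-fold, which is less than the 3.95-fold of Lox itself; these differences were not tested. Sparc, a collagen-binding matricellular protein gene, had 11.04 and 11.46 in co-culture and 13.30, 12.87 and 13.90 in MSC alone, 4.31-fold lower (limma adjusted p 0.00383), and Fn1, encoding fibronectin, fell 2.31-fold. The other Fn1 probe set, 1437218_at, was 6.20-fold lower, 10.3-fold without co-culture replicate 1 and 3.74-fold without co-culture replicate 2. The fibril-associated collagen Col12a1 had 7.12 and 7.42 in co-culture and 11.27, 10.79 and 11.63 in MSC alone, 15.6-fold lower (limma adjusted p 0.000647), and Col16a1 was 4.42-fold lower. Col12a1 had the largest fall of the list, though its other probe set, 1427391_a_at, fell less, 9.06-fold.

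**Figure D4:**
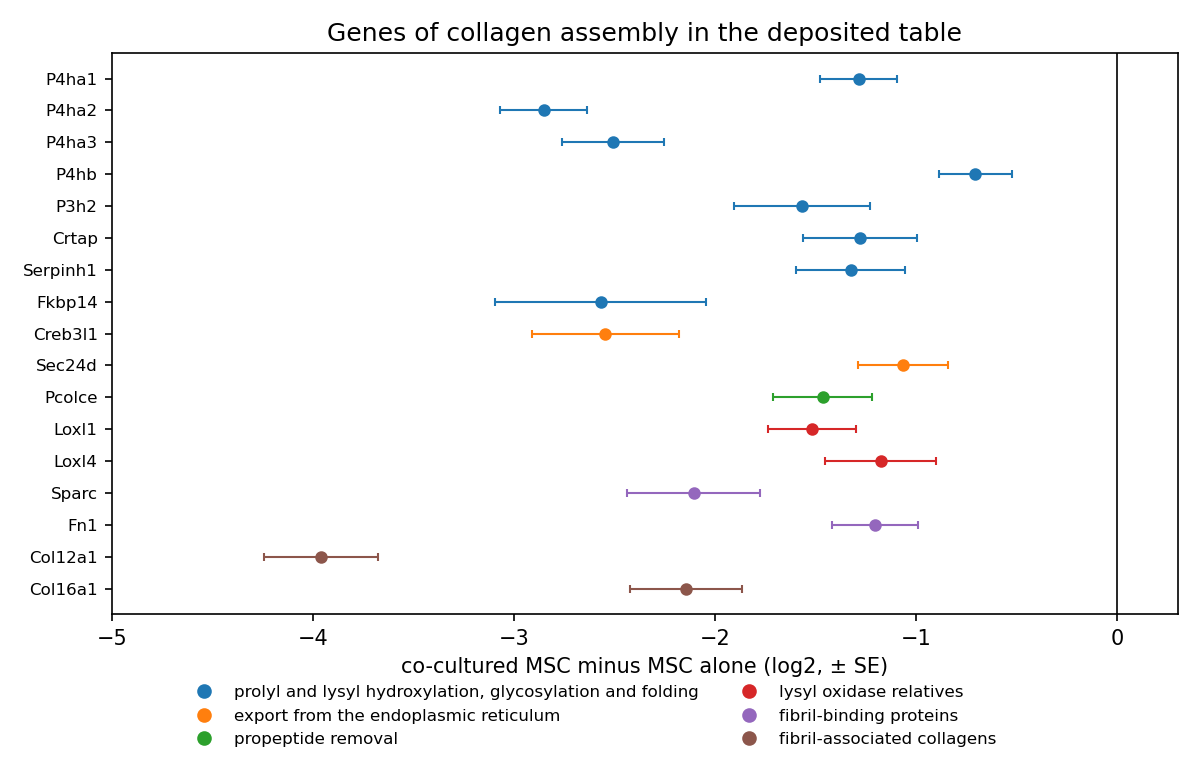
Difference between co-cultured MSC and MSC alone on the log2 scale, with limma's SE, for the 17 collagen assembly genes in the table, each by its brightest probe set and coloured by role. All lie below 0, from P4hb at -0.71 to Col12a1 at -3.96.

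Cell type markers were few in the table. Of 15 markers of mesenchymal stromal cells 6 were present. Pdgfrb (5.87-fold), Cd44 (1.81-fold), Cxcl12 (11.5-fold) and Alcam (2.11-fold) were lower in co-culture. Pdgfra (13.7-fold) and Vcam1 (7.50-fold) were higher. The summed log2 values of the 6 were 53.55 to 54.64 in co-culture and 55.15 to 55.82 in MSC alone. That sum sets falls against rises, so it hides the size of the changes. Of 14 macrophage and monocyte markers 2 were present, Mpeg1 and Ctss, both higher, with summed log2 values of 14.7 to 16.05 in co-culture and 7.48 to 8.47 in MSC alone; their part in the fall of the collagens was not tested. Of 14 T cell, 6 endothelial, 6 adipocyte, 6 osteoblast and 5 chondrocyte markers 0 were present, so none of these cell types could be read. The 6 stromal genes above moved both ways, in a table treated as selected on this contrast, so they could not check the MSC label. Array medians over the table were 7.50 and 7.42 in co-culture and 7.61 to 7.64 in MSC alone.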

How the data were processed

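Gene expression of mouse bone marrow MSC was measured on 5 Affymetrix arrays, grouped by sample title: 2 of co-cultured MSC and 3 of MSC alone. The authors deposited 1 log2 value per probe set and array, from RMA (no version named), per the submitters' processing notes. RMA quantile-normalises arrays, compresses low values and gives no detection call. The table holds 3373 probe sets; how they were selected is not stated in the labels. The platform annotation gave 1 symbol to 3013 probe sets, several to 69 and none to 291. Entrez identifiers and symbols of all 7 member genes matched RefSeq GRCm38.p6.

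The test was limma 3.58.1 (R 4.3.3), lmFit and eBayes over the whole table, two-sided, Benjamini-Hochberg adjustment, threshold 0.05, no covariates and no filter. Pairs of genes were compared by exact permutation (scipy 1.17.1). The number of arrays limits the precision. Selection for separated groups favours small spreads and large differences, so errors may be too small and folds too large. P-values measure only the spread between these arrays. Members, lists and alternatives were chosen with earlier results of these data known. Genes named are all members, all list genes in the table and, with members left out, the 3 genes most like each member. Alternatives were array centring, no moderation, an intensity trend, a filter on the dimmest 25%, 15 times as many tests, a replicate block, each array left out and another probe set.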

Additional observations from a re-analysis of the deposited data

How the results depend on the processing

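The 15 fibrillar collagen and Lox probe sets were fitted under 11 alternatives. In 162 of the 165 resulting fits the direction and the side of the threshold were as reported; the other 3 (Col1a2 1450857_a_at, Col5a1 1416741_at and Lox) no longer passed in limma with p adjusted for 15 times the number of probe sets. That setting, which changes only the number of tests, left 12 of the 15 and 5 of the 17 collagen assembly genes called. Of the 3373 probe sets 415 were called in either direction, 210 of them lower. Without each array in turn 15 and 17 stayed called throughout, while 3116 to 3371 probe sets of the table were called; where an arm was left with 1 array, that array is assumed to vary like the others. Centring each array on its median moved every log2 difference by 0.16 and left falls of 1.82 to 6.19. No direction could turn in these fits, as the groups were apart by at least 0.995 in all 15. Most of the table stayed called as well: 3281 of 3373 probe sets with no moderation and 3315 with centring. Staying called is therefore not particular to the members. The replicate numbers are shared between groups, but the labels do not say that a number marks a shared culture and only 2 pairs exist. The deviations of same-numbered arrays correlated at 0.221 and 0.32 across probe sets. Those of MSC alone replicate 3 and co-culture replicate 1 correlated at 0.106. With 2 co-culture arrays their deviations are exact opposites, so these values cannot show whether cultures were shared. With the replicate block 15 member probe sets, 17 assembly genes and 3365 probe sets were called. The block gave the same differences as leaving out MSC alone replicate 3, so it adds no separate estimate. The difference in fall between Col11a1 and Lox ran from -3.97 to -1.76 without single arrays, and was -3.75 with the dimmest probe set of each gene, where Col3a1 and Lox lay farther apart (-4.37); array centring cancels in it and was not run. Values near the bottom of the range, and Col1a2 near its top, limit what the sizes can say.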
